A study of Mus musculus with 8 samples.

Results

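Axon guidance genes encode the ligands that steer growing axons and the receptors that read them. The members were taken by symbol: all semaphorins (Sema) and plexins (Plxn), the ephrins (Efna, Efnb) and their Eph receptors (Epha, Ephb), the Slits and Robos, the netrins (Ntn), and the netrin receptors Dcc and Unc5a to Unc5d. Of 68 symbols that met this rule in the RefSeq gene table, 67 had a probe on the array, out of 22911 named genes. Sema4b, the remaining symbol, was not analysed here. The 67 members had 109 probes, and 31 members had several.

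The study asked how regulatory T cells (Treg) act in the brain after stroke, and it measured RNA of mouse samples on 8 one-colour Agilent arrays, 1 array per group. The 4 tissue arrays hold brain tissue of the ischemic side (slice 3) at day 14. They are DEREG mice after ischemia, wild type (WT) mice after ischemia, DEREG mice after sham surgery and WT mice after sham surgery. The 4 T cell arrays hold CD4+ Treg from WT ischemic brain at day 14, CD4+ nonTreg from the same kind of brain, Treg from untreated spleen and nonTreg from untreated spleen. DEREG mice carry a diphtheria toxin receptor transgene under control of the Foxp3 locus, so that toxin can remove Treg. The labels used here do not say whether toxin was given, how Treg and nonTreg were separated, or how many animals gave each RNA.

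Semaphorins mostly repel axons through plexins, and the secreted class 3 members need a neuropilin as co-receptor. Ephrins and Eph receptors both sit in cell membranes and signal on contact in both directions. Slits repel through Robo receptors, and netrins attract through Dcc and repel through Unc5 receptors. In the adult brain many of these genes persist in neurons, and several also act in vessels, glia and immune cells.

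With 1 array per group no difference could be tested against replicates, so every difference describes the libraries named, and no error or p-value is given. Signals are background-subtracted intensities scaled to the 75th percentile of each array. Values are comparable between arrays of a set for 1 probe, and no probe's level was set against another probe's. A member was called higher or lower at 2-fold or more, a log2 difference of 1. Where 1 of the arrays compared did not show the probe well above background, the difference is a bound, written as "at least". On the tissue arrays 62.0% to 65.1% of all probes were well above background, and on the T cell arrays 47.6% to 51.9%. For 300 probes printed on 10 spots, the SD between spots was read where the probe was well above background. Its median was 0.039 to 0.042 on the log2 scale, which is technical error only. It was larger for those with a signal under 50 before scaling. There the median was 0.19 to 0.322 on the T cell arrays (5 to 10 probes each), and 0.14 to 0.52 on the tissue arrays (1 or 2 probes each). Every member probe had 1 spot.

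The samples carried the markers of their labels. All 12 neuron markers were well above background on the 4 tissue arrays, and all 8 T cell markers on the 4 T cell arrays. Foxp3, the Treg transcription factor, had a signal of 3843 in Treg and 726.4 in nonTreg of the brain, and of 7782 in Treg of the spleen. The spleen nonTreg array read 12.2 for it, a signal too dim to count as measured. Foxp3 was not well above background on any tissue array, so it gives no check of the Treg content of DEREG tissue. Of the 5 Treg markers 3 were well above background on both ischemic tissue arrays. There 1 was at least 2-fold higher in DEREG than in WT and none was lower. The 5 summed to 2488 in DEREG against 1765 in WT ischemic tissue. What this means for Treg content was not tested. Both brain T cell arrays also carried markers of other cells: all 9 microglia markers and all 7 endothelial markers were well above background on both.

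Guidance genes were broadly detected in brain tissue. Of the 67 members, 63 were well above background on all 4 tissue arrays, against 66.0% of all named genes, and 3 on some of them (Sema3g, Plxna4os1 and Unc5d). Ntn4, a laminin-like netrin, was not well above background on any.

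Stroke moved many members, and more of them down than up. In DEREG tissue 29 of 66 members compared were at least 2-fold lower after ischemia than after sham surgery (22.1% of all 17161 genes compared were), and 9 were at least 2-fold higher (22.4% of all genes). In WT tissue 21 of 66 were lower (18.4% of 16968 genes) and 7 were higher (18.8%). The median log2 difference over measured members was -0.77 in DEREG tissue, beside -0.09 over all genes measured. In WT tissue it was -0.62, beside -0.19 over all genes. The 2 stroke comparisons share no array: 20 members were lower in both, 20 of the 29 in DEREG and 20 of the 21 in WT. Over all genes 2656, measured on all 4 arrays, were lower in both, beside 3799 lower in DEREG and 3123 lower in WT. The last 2 counts also hold bounds. The 6 higher in both were 6 of the 9 in DEREG and 6 of the 7 in WT, and none went opposite ways at 2-fold. For these no overlap was counted over all genes.

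**Figure D1:**
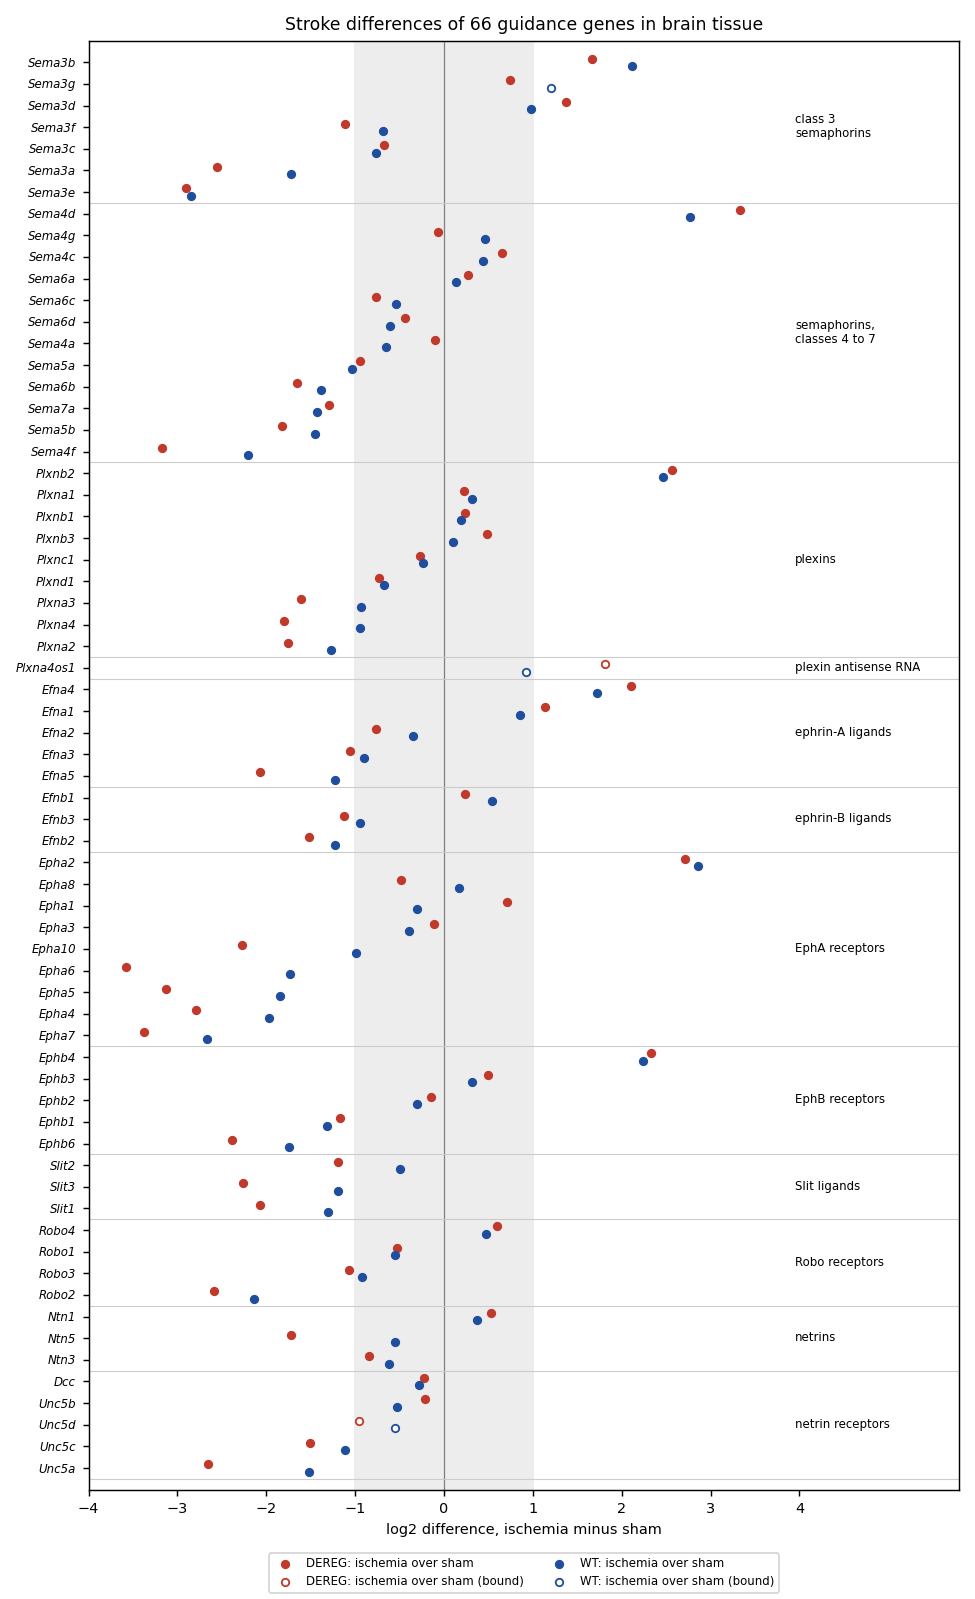
Log2 difference of ischemia minus sham (x axis) for the 66 members compared in brain tissue, grouped by role, with red points for DEREG and blue points for WT. Open points are bounds and the grey band holds differences under 2-fold. Points to the left of the band (29 in DEREG, 21 in WT) outnumber those to its right (9 in DEREG, 7 in WT).

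Cell type markers moved along with these genes. All 12 neuron markers fell after stroke in both genotypes, with a median log2 difference of -2.98 in DEREG and -1.87 in WT. Their summed signal was 32211 in DEREG ischemia against 237775 in DEREG sham tissue, and 72958 in WT ischemia against 250664 in WT sham tissue. Microglia markers rose (9 of 9 in DEREG with a median of 3.20, and 8 of 9 in WT with a median of 2.81), and so did all 6 macrophage markers (medians 5.48 in DEREG and 5.34 in WT). Pericyte and fibroblast markers rose in 6 of 8 in DEREG and 5 of 8 in WT, and endothelial markers in 3 of 7 in DEREG and 2 of 7 in WT. Choroid plexus markers rose in 4 of 5 in WT (median 2.86). In DEREG 1 of these 5 rose and 1 fell (median -0.05). In such bulk tissue fewer cells of a type and less RNA per cell cannot be told apart, and the part of these markers in the guidance gene differences was not tested.

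The RefSeq promoter windows (GRCm38.p6, the 250 bases before the transcription start) were read for members that moved alike after both strokes. Windows were listed for 5 of the 6 genes higher in both (8 windows), for 19 of the 20 lower in both (23 windows) and for 30 of 37 other members measured in both (38 windows). The median number of CpG dinucleotides per window was 8.0 for the higher genes and 18.0 for the lower genes, against 15.5 for the other members and 6.0 over all 32851 windows of the table. Windows of 1 gene were counted separately. Of the higher genes, Sema4d had windows with 1, 2 and 2 CpG and Plxnb2 had windows with 13 and 20, so that median leans on few genes. A GC box (GGGCGG, either strand), the motif of Sp factors, was in 62.5% of windows of the higher genes and 65.2% of the lower genes, against 71.1% of the other members and 32.7% of all windows. An AP-1 motif (TGANTCA, either strand) was in 1 of 8 windows of the higher genes (12.5%) and in 4.35% of windows of the lower genes, against 2.63% of the other members and 6.75% of all windows. Among the higher genes that window belonged to Sema4d. Shown are the 2 genes with the strongest rise and the 2 with the strongest fall, among those with a single window, by the smaller of their stroke differences. Both motifs were searched and none of these windows holds the AP-1 letters, so the capitals mark GC boxes: 1 in Epha2, 4 in Ephb4, 2 in Sema3e and none in Sema4f.
Epha2, chr4:141300971-141301220, plus strand: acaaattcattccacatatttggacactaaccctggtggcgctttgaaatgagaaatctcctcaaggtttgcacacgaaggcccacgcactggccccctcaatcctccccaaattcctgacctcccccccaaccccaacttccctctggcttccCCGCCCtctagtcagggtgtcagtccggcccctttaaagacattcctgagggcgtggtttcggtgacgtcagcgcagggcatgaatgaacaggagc
Ephb4, chr5:137349859-137350108, plus strand: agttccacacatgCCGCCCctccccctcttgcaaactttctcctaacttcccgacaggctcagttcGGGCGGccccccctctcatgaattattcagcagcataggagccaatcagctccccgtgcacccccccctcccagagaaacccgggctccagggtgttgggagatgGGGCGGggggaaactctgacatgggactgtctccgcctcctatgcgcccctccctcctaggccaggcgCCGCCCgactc
Sema3e, chr5:14025026-14025275, plus strand: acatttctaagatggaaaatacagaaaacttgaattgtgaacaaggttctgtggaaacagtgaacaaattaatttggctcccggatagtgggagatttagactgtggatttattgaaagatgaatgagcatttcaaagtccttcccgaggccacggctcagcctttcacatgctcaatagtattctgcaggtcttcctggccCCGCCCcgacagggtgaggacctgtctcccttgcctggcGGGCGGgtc
Sema4f, chr6:82939770-82940019, minus strand: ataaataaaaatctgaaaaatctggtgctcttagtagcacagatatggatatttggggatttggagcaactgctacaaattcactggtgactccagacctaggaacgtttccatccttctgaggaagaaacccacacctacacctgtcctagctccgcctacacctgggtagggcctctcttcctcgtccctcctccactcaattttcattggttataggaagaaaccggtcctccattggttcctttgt

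Class 3 semaphorins, the secreted ligands, split both ways after stroke. Sema3b, a repellent that binds neuropilins, had signals of 728.7 in DEREG ischemia against 229.5 in DEREG sham tissue, and 815.8 in WT ischemia against 187.3 in WT sham tissue. It was 3.17-fold higher after stroke in DEREG and 4.35-fold higher in WT. Sema3e, which signals through plexin D1 without a neuropilin, was the lowest class 3 member. Its signal was 59.3 in DEREG ischemia against 442.4 in DEREG sham tissue, 7.46-fold lower, and 76.5 in WT ischemia against 550.5 in WT sham tissue, 7.19-fold lower. Sema3a, the classical collapsing factor of axon growth cones, had 39.6 in DEREG ischemia against 232.1 in DEREG sham tissue (5.86-fold lower), and 69.2 in WT ischemia against 228.4 in WT sham tissue (3.30-fold lower). In all 3 genes both ischemic arrays stood on the same side of both sham arrays. A second, dimmer Sema3a probe did not reach 2-fold in either stroke comparison, at 1.34-fold lower in DEREG and 1.5-fold lower in WT. The size of the Sema3a fall therefore depends on the probe.

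Sema3d was 2.59-fold higher in DEREG (409.6 against 158.2) and 1.97-fold higher in WT (305.9 against 155.0), just under the threshold there. Sema3f, a ligand of neuropilin 2, was 2.16-fold lower in DEREG (884.0 against 1909) and 1.61-fold lower in WT (1104 against 1782). Sema3g was dim: its signals were 33.9 in DEREG ischemia against 20.2 in DEREG sham tissue, and 27.7 in WT ischemia against 8.4, not well above background, in WT sham tissue. That is at least 2.30-fold higher in WT and 1.68-fold higher in DEREG, so the call in WT rests on 1 dim array. Sema3c, the seventh class 3 member, did not reach 2-fold in either genotype.

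Among the 12 membrane-bound semaphorins of classes 4 to 7, Sema4d alone rose by the probe used for each gene. Sema4d (CD100), a ligand of plexin B1 and of the immune receptor Cd72, had 2204 in DEREG ischemia against 219.5 in DEREG sham tissue, a log2 difference of 3.33. In WT the signals were 1540 after ischemia against 225.8 after sham surgery, a log2 difference of 2.77. It was the largest rise of any measured member in DEREG tissue and second to Epha2 in WT tissue. Sema4f, a transmembrane class 4 member, went the other way: 79.5 in DEREG ischemia against 716.2 in DEREG sham tissue (a log2 difference of -3.17), and 160.2 in WT ischemia against 740.3 in WT sham tissue (-2.21).

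Sema7a, a lipid-anchored ligand of integrins and plexin C1, had 1760 in DEREG ischemia against 4314 in DEREG sham tissue, and 2053 in WT ischemia against 5523 in WT sham tissue. It fell 2.45-fold in DEREG and 2.69-fold in WT. Sema5b fell by 1.82 in DEREG and by 1.45 in WT on the log2 scale. Sema6b, a transmembrane ligand of A-type plexins, fell by 1.65 in DEREG and by 1.38 in WT. Sema5a was called in WT tissue only, with log2 differences of -0.94 in DEREG and -1.04 in WT that lie close together around the threshold. Sema4a, an immune semaphorin, had 2617 in DEREG ischemia against 2802 in DEREG sham tissue and 1903 in WT ischemia against 2975 in WT sham tissue, under 2-fold in both. Sema4g, Sema6a, Sema6c and Sema6d also stayed under 2-fold in both. Sema4c depended on the probe: the brightest of 3 was 1.57-fold higher in DEREG and 1.36-fold higher in WT, the second 2.36-fold higher in DEREG and 2.19-fold higher in WT, and the third 2.01-fold higher in DEREG and 1.21-fold higher in WT.

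Of the 9 plexins, the semaphorin receptors, Plxnb2 was the one that rose. Plxnb2, a receptor for class 4 semaphorins, had 12256 in DEREG ischemia against 2060 in DEREG sham tissue (5.95-fold), and 10412 in WT ischemia against 1898 in WT sham tissue (5.49-fold). The other B plexins did not follow: Plxnb1, the receptor of Sema4d, had log2 differences of 0.24 in DEREG and 0.19 in WT, and Plxnb3 had 0.48 in DEREG and 0.10 in WT. Of the 4 A-type plexins, Plxna2 fell in both genotypes, and Plxna3 and Plxna4 in DEREG. Plxna2 fell 3.35-fold in DEREG and 2.41-fold in WT. Plxna4, a co-receptor of Sema3a, had 496.2 in DEREG ischemia against 1731 in DEREG sham tissue (3.49-fold lower), and 826.8 in WT ischemia against 1600 in WT sham tissue (1.93-fold lower). Plxna3 was 3.06-fold lower in DEREG and 1.90-fold lower in WT. Plxnd1, the receptor of Sema3e, had 7239 in DEREG ischemia against 12029 in DEREG sham tissue, and 7819 in WT ischemia against 12533 in WT sham tissue, which is 1.66-fold lower in DEREG and 1.60-fold lower in WT. Plxna1 was on the higher side, at 1.17-fold in DEREG and 1.24-fold in WT. Plxnc1 was 1.20-fold lower in DEREG and 1.18-fold lower in WT by the probe used, while a dimmer one was 1.77-fold higher in DEREG and 1.40-fold higher in WT. Plxna4os1, an RNA antisense to Plxna4, was seen on the ischemic arrays only, at 36.8 in DEREG and 22.8 in WT, at least 3.50-fold higher in DEREG and at least 1.89-fold higher in WT.

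The ephrin ligands also divided. Efna4 had 85.8 in DEREG ischemia against 20.0 in DEREG sham tissue (4.30-fold higher), and 91.0 in WT ischemia against 27.6 in WT sham tissue (3.30-fold higher). Its sham signals were dim, and with normexp background correction it was under 2-fold in both genotypes. Efna1, a ligand of Epha2, was 2.20-fold higher in DEREG (460.3 against 209.1) and 1.81-fold higher in WT (399.5 against 220.7). Efna5, a ligand that maps axons onto their targets, had 640.2 in DEREG ischemia against 2681 in DEREG sham tissue (4.19-fold lower), and 1173 in WT ischemia against 2748 in WT sham tissue (2.34-fold lower). Efnb2, the ligand of Ephb4 on arterial endothelium, had 863.7 in DEREG ischemia against 2471 in DEREG sham tissue (2.86-fold lower), and 1082 in WT ischemia against 2539 in WT sham tissue (2.35-fold lower). So Efnb2 fell where its receptor Ephb4 rose. Efnb3 and Efna3 were called in DEREG, where Efnb3 was 2.18-fold and Efna3 2.09-fold lower, and lay under the threshold in WT, where Efnb3 was 1.92-fold and Efna3 1.86-fold lower. The other Efna3 probe was at least 10.3-fold lower in DEREG and 4.17-fold lower in WT. Efnb1 and Efna2 stayed under 2-fold in both.

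The EphA receptors held the 2 deepest falls of all members in DEREG tissue. Epha6 had 26.4 in DEREG ischemia against 315.2 in DEREG sham tissue, a log2 difference of -3.58, and 93.7 in WT ischemia against 310.6 in WT sham tissue, a log2 difference of -1.73. Epha7, which acts in cortical map formation, had 62.0 in DEREG ischemia against 644.3 in DEREG sham tissue (10.4-fold lower), and 114.5 in WT ischemia against 727.2 in WT sham tissue (6.35-fold lower). Epha5 had 195.6 in DEREG ischemia against 1710 in DEREG sham tissue (8.74-fold lower), and 503.7 in WT ischemia against 1819 in WT sham tissue (3.61-fold lower). In each of these the DEREG ischemic array was the lowest of the 4. Epha4, which binds ephrins of both classes and restrains the crossing of corticospinal axons, had 481.2 in DEREG ischemia against 3318 in DEREG sham tissue (6.89-fold lower), and 934.1 in WT ischemia against 3668 in WT sham tissue (3.93-fold lower). Epha10, a member without kinase activity, had 59.5 in DEREG ischemia against 285.9 in DEREG sham tissue (4.81-fold lower), and 117.8 in WT ischemia against 234.0 in WT sham tissue (1.99-fold lower).

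Epha2 stood apart from its family. It is a receptor of epithelial and endothelial cells, and it had 572.0 in DEREG ischemia against 87.6 in DEREG sham tissue (6.53-fold higher), and 445.9 in WT ischemia against 61.3 in WT sham tissue (7.28-fold higher). Among the EphB receptors, Ephb4, a receptor of venous endothelium, had 574.4 in DEREG ischemia against 114.3 in DEREG sham tissue (5.02-fold higher), and 470.5 in WT ischemia against 99.7 in WT sham tissue (4.72-fold higher). Ephb6, a receptor without kinase activity, had 1205 in DEREG ischemia against 6267 in DEREG sham tissue (5.20-fold lower), and 2324 in WT ischemia against 7759 in WT sham tissue (3.34-fold lower). Ephb1 fell 2.25-fold in DEREG and 2.50-fold in WT. Ephb2, a receptor found at excitatory synapses, had log2 differences of -0.15 in DEREG and -0.30 in WT, and Ephb3, Epha1, Epha3 and Epha8 were also under 2-fold.

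**Figure D2:**
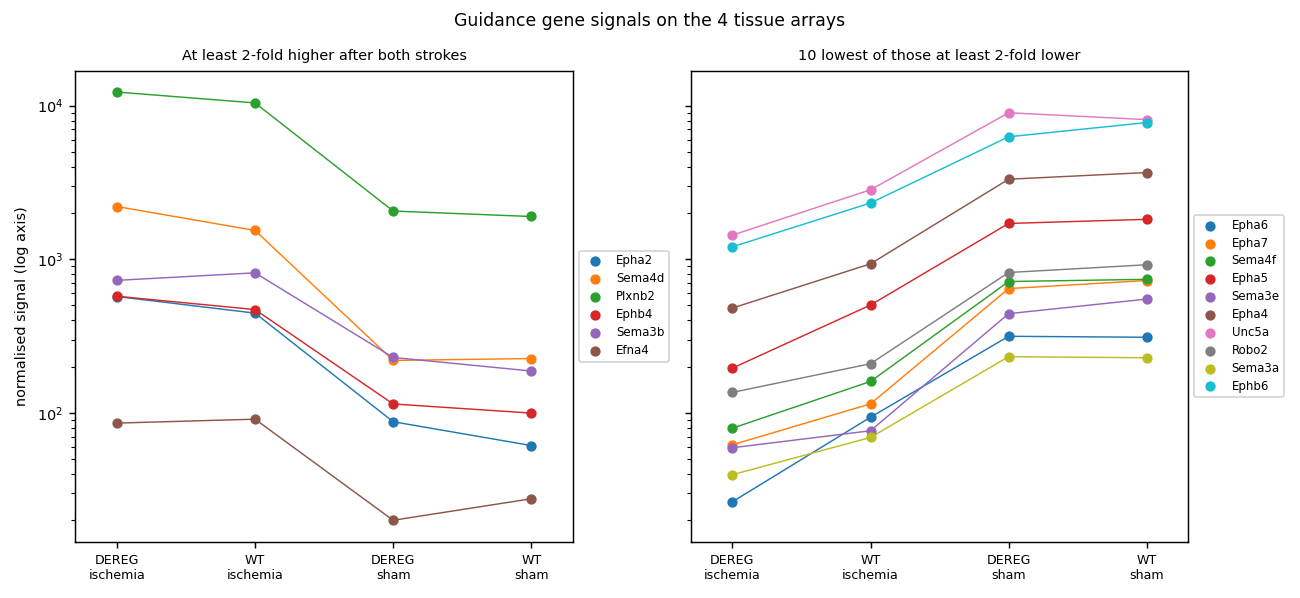
Normalised signal (log axis) on the 4 tissue arrays for the 6 members at least 2-fold higher after both strokes (left) and the 10 with the largest fall in DEREG among the 20 at least 2-fold lower after both (right). Each point is 1 array and lines only join a gene's points. Both ischemic arrays lie above both sham arrays on the left and below them on the right, which the 2-fold rule favours. On the right the DEREG ischemic array is the lowest for every gene, which the choice by the fall in DEREG favours. Of all genes lower after both strokes, 93.7% fell further in DEREG.

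All 3 Slits, the repellent ligands of Robo receptors, were lower in DEREG ischemia by the probe used for each gene. Slit1 had 593.6 in DEREG ischemia against 2495 in DEREG sham tissue (4.20-fold lower), and 909.2 in WT ischemia against 2233 in WT sham tissue (2.46-fold lower). Slit3 had 117.4 in DEREG ischemia against 561.2 in DEREG sham tissue (4.78-fold lower), and 244.4 in WT ischemia against 559.4 in WT sham tissue (2.29-fold lower). Slit2 had 187.3 in DEREG ischemia against 428.4 in DEREG sham tissue (2.29-fold lower), and 333.7 in WT ischemia against 469.3 in WT sham tissue, 1.41-fold lower and so not called there. A dimmer Slit2 probe was 1.33-fold lower in DEREG and 1.11-fold higher in WT. With the median over its probes the Slit2 call in DEREG was under 2-fold. Among the receptors Robo2 fell furthest, with 135.9 in DEREG ischemia against 819.9 in DEREG sham tissue (6.03-fold lower), and 209.0 in WT ischemia against 920.8 in WT sham tissue (4.41-fold lower). Robo3, known for its part in midline crossing of commissural axons, was 2.09-fold lower in DEREG and 1.89-fold lower in WT. Robo1 was 1.45-fold lower in DEREG and 1.47-fold lower in WT by its brighter probe, while a dimmer one was at least 5.61-fold lower in DEREG and 3.15-fold lower in WT. Robo4, the endothelial Robo, was 1.51-fold higher in DEREG and 1.39-fold higher in WT.

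Netrin 1 itself was dim and differed little. Ntn1 had 45.7 in DEREG ischemia against 31.7 in DEREG sham tissue, and 45.5 in WT ischemia against 35.2 in WT sham tissue, 1.44-fold higher in DEREG and 1.29-fold higher in WT. Ntn5 had 251.5 in DEREG ischemia against 827.7 in DEREG sham tissue (3.29-fold lower), and 552.9 in WT ischemia against 808.0 in WT sham tissue (1.46-fold lower). Of the repulsive netrin receptors, Unc5a had 1436 in DEREG ischemia against 8984 in DEREG sham tissue (6.26-fold lower), and 2832 in WT ischemia against 8109 in WT sham tissue (2.86-fold lower). Unc5c fell 2.84-fold in DEREG and 2.16-fold in WT, and by a dimmer probe 2.10-fold in DEREG and 1.47-fold in WT. The Unc5c call in WT was under 2-fold with normexp background correction and with the median over its probes. Unc5b, which also acts in vessels, had log2 differences of -0.21 in DEREG and -0.53 in WT. Unc5d was above background on the sham arrays only (21.1 in DEREG and 16.5 in WT) and was at least 1.95-fold lower in DEREG ischemia and at least 1.46-fold lower in WT ischemia.

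The 4 probes of Dcc, the attractive netrin receptor, disagreed. The brightest probe, which stands for the gene, had 53387 in DEREG ischemia against 62092 in DEREG sham tissue, and 56791 in WT ischemia against 68974 in WT sham tissue. That is 1.16-fold lower in DEREG and 1.21-fold lower in WT. The next probe had 13.1 in DEREG ischemia against 108.8 in DEREG sham tissue, and 24.5 in WT ischemia against 141.7 in WT sham tissue. The remaining 2 probes were likewise lower on both ischemic arrays, with 6.8 (not well above background) and 18.5 in DEREG ischemia against 46.8 and 45.8 in DEREG sham tissue, and 18.1 and 18.9 in WT ischemia against 63.0 and 54.7 in WT sham tissue. On the T cell arrays only the brightest probe was above background. A value for Dcc in tissue therefore depends on which probe is read, and in T cells it rests on 1 probe.

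**Figure D3:**
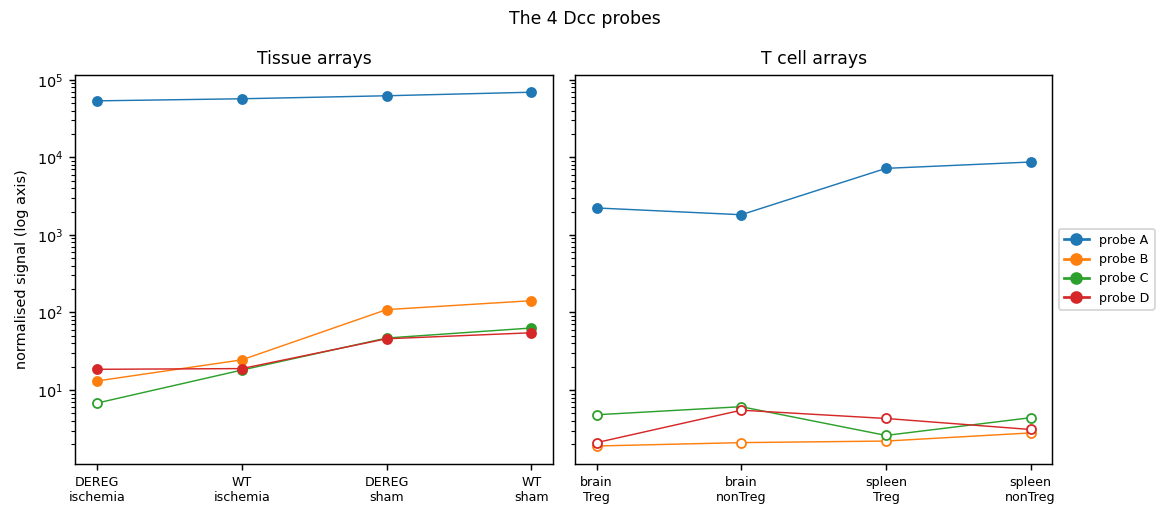
Normalised signal (log axis) of the 4 Dcc probes on the tissue arrays (left) and the T cell arrays (right). Filled points are well above background, open points are not, and lines join a probe's points. Probe A differs little between tissue arrays, probes B, C and D are lower on the ischemic arrays, and on the T cell arrays only probe A is above background.

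Guidance partners outside these families were read from 3 lists, whose counts stand beside the shares of all genes given above (22.4% higher and 22.1% lower in DEREG, 18.8% higher and 18.4% lower in WT). Of 23 other guidance ligands and co-receptors compared, 4 were higher and 9 lower in DEREG after stroke, and 4 were higher and 10 lower in WT. Nrp1, the neuropilin through which Sema3a acts, had 8829 in DEREG ischemia against 1186 in DEREG sham tissue, a log2 difference of 2.90, and 7934 in WT ischemia against 1305 in WT sham tissue, 2.60. Cd72, the immune receptor of Sema4d, had log2 differences of 5.97 in DEREG and 4.34 in WT, with sham signals of 151.3 in DEREG and 376.4 in WT. Ntng1, a membrane-anchored netrin relative, had -4.20 in DEREG and -2.60 in WT. Of 39 cytoplasmic effectors 9 were higher and 13 lower in DEREG, and 4 higher and 12 lower in WT. Chn1, a Rac inhibitor that acts downstream of Epha4, had -3.88 in DEREG and -2.42 in WT, and Rhod, a small GTPase that binds plexins, had 3.34 in DEREG and 3.08 in WT. Of 11 myelin-associated growth inhibitors and receptors none was higher, and 7 in DEREG and 4 in WT were lower. The Nogo receptor gene Rtn4r had -3.29 in DEREG and -1.74 in WT, and its partner Lingo1 had -3.88 in DEREG and -2.22 in WT.

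After stroke DEREG tissue held less of a few guidance genes than WT tissue. Of 65 members compared 5 were at least 2-fold lower (5.37% of 16857 genes were) and none was at least 2-fold higher (2.36%), so that 5 of 65 were called either way, against 7.73% of all genes, a share close to that background. Epha6 had 26.4 in DEREG against 93.7 in WT ischemic tissue, 3.55-fold lower. Epha5 was 2.58-fold lower, Ntn5 2.20-fold, Slit3 2.08-fold and Sema4f 2.01-fold lower. With normexp background correction, 1 of the 5 remained (Epha5), and scaling to the array median left 3, without Slit3 and Sema4f. Epha10, Unc5a, Epha4 and Ephb6 followed just under the threshold at 1.98-fold, 1.97-fold, 1.94-fold and 1.93-fold lower. The highest measured member was Plxna4os1, at 36.8 in DEREG against 22.8 in WT ischemic tissue, followed by Sema4d at 1.43-fold and Sema4a at 1.38-fold higher. The median log2 difference was -0.16 over members and 0.08 over all genes, with 44 members below 0 and 21 above. Across the same 2 arrays 7 of 12 neuron markers were lower in DEREG (median -1.16, summed signal 32211 in DEREG against 72958 in WT), and 4 of 5 choroid plexus markers were lower (summed 8870 in DEREG against 43255 in WT). Of the T cell markers 7 of 8 were higher (summed 6795 in DEREG against 2237 in WT). On the sham arrays the choroid plexus markers summed to 8940 in DEREG and 9292 in WT, so the WT ischemic array alone stood high. The part of these markers in the member differences was not tested. Of the partner lists, 2 of 23 other ligands and co-receptors, 4 of 39 effectors and 3 of 11 myelin-associated genes were lower. None was higher, where 5.37% of all genes were lower and 2.36% higher.

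After sham surgery the genotypes lay close together. None of 65 members compared reached 2-fold in either direction, where 0.59% of all 16273 genes were higher and 0.449% lower. Member differences measured on both arrays ran from -0.71 (Epha1, at 33.2 in DEREG against 54.1 in WT sham tissue) to 0.52 (Epha2, at 87.6 in DEREG against 61.3 in WT sham tissue). The next were Robo3 at -0.53 and Efna4 at -0.47 below 0, and Epha8 at 0.41 and Unc5d at 0.35 above it. These values give a sense of how far 2 sham arrays of different genotype differ for these probes. Sema3g was at least 1.68-fold higher in DEREG sham tissue.

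The stroke difference in DEREG minus that in WT was 1 or more for 1 of 63 members, Epha1 at 1.02 (0.906% of 15120 genes), and -1 or less for 6 (5.21%). The 6 were Epha6 at -1.85, Epha5 at -1.28, Epha10 at -1.27, Ntn5 at -1.17, Unc5a at -1.13 and Slit3 at -1.06. Epha1 is dim, and its genotype difference in sham tissue was the largest of those measured on both sham arrays. Of the 20 members lower after both strokes, 18 fell further in DEREG than in WT (90.0%), against 93.7% of the 2656 genes measured on all 4 arrays that were lower after both, so this share is near the background. Over all 63 members 38 lay below 0, against 44.1% of all genes. The difference between genotypes was not tested, since each group has 1 array.

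**Figure D4:**
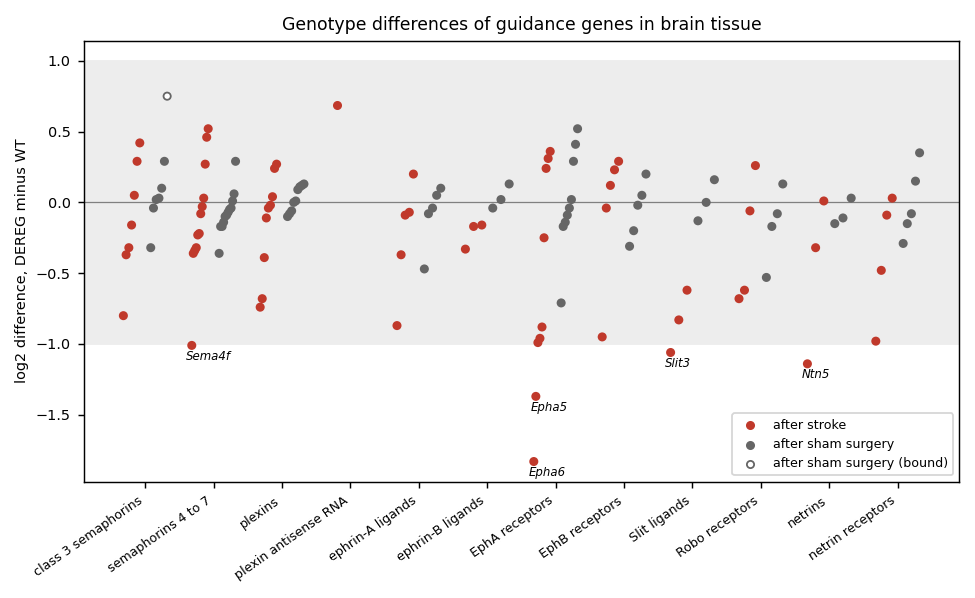
Log2 difference of DEREG minus WT (y axis) for 65 members after stroke (red) and 65 after sham surgery (grey), by role. The open point is a bound and the grey band holds differences under 2-fold. Epha6, Epha5, Ntn5, Slit3 and Sema4f lie below the band after stroke, and no member lies outside it after sham surgery.

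In CD4+ T cells a smaller share of members than of all genes was well above background on all 4 arrays. The share above background on none was close to that of all genes. Of the 67 members 22 were well above background on all 4 T cell arrays and 27 on none, where 49.3% of all named genes were above on all 4 and 37.6% on none. The families differed: 7 of 9 plexins and 7 of 12 membrane-bound semaphorins were above background on all 4 arrays, against none of 7 class 3 semaphorins, none of 9 EphA receptors and none of the Slits, Robos and netrins. Sema4d, known on T cells as CD100, had 2723 in Treg and 2536 in nonTreg of the brain, and 2508 in Treg and 2313 in nonTreg of the spleen, so all 4 arrays lay within a narrow range. Sema4c had 6310 in Treg and 6465 in nonTreg of the brain, and 6188 in Treg and 5898 in nonTreg of the spleen, read from the brightest of its 3 probes. Ephb3 was also even, at 4029 in Treg and 4086 in nonTreg of the brain, and 3756 in Treg and 3808 in nonTreg of the spleen.

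Sema3a, Robo1, Ntn1 and all 3 Slits were not well above background on any T cell array. Others passed on a single array and close to the limit, such as Epha4 at 10.8 and Efna4 at 9.7 in brain Treg, and Unc5b at 11.2 and Sema3g at 11.0 in brain nonTreg.

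Brain Treg differed from spleen Treg at 16 of 35 members compared: 10 were at least 2-fold higher (17.2% of 13779 genes) and 6 at least 2-fold lower (11.7%). Brain nonTreg differed from spleen nonTreg at 16 of 34: 11 were higher (17.8% of 13404 genes) and 5 lower (12.1%). Of the 32 members compared in both, 9 were higher in both (9 of 10 in Treg and 9 of 10 in nonTreg), 3 were lower in both (3 of 5 in Treg and 3 of 4 in nonTreg), and Epha3 went opposite ways. The overlap over all genes was not counted, so these counts have no background to be read against. Median log2 differences over measured members were -0.09 for Treg and -0.04 for nonTreg, beside -0.04 for Treg and -0.07 for nonTreg over all genes. Of the 16 calls each, 8 in Treg and 9 in nonTreg were bounds, and with normexp background correction there were 8 calls in Treg and 7 in nonTreg.

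Markers of other cells were higher in the brain T cell samples as well. All 9 microglia markers were higher in brain than in spleen Treg (summed signal 43733 in brain against 1128 in spleen), and 8 were higher in brain than in spleen nonTreg (17152 in brain against 1339 in spleen). Of 7 endothelial markers 4 were higher in brain Treg (summed 31786 in brain against 16535 in spleen) and 6 in brain nonTreg (55881 in brain against 21681 in spleen). Only 2 of the 7 were well above background on each spleen array, so the spleen sums rest on few genes. These sums are therefore no measure of endothelial RNA alone. Macrophage markers were higher at 5 of 5 compared in Treg (summed 4223 in brain against 170.4 in spleen) and 5 of 5 in nonTreg (2088 in brain against 144.7 in spleen). Dendritic cell markers were higher at 5 of 5 in Treg and 4 of 5 in nonTreg, pericyte and fibroblast markers at 5 of 6 in Treg and 5 of 7 in nonTreg, and B cell markers at 3 of 5 in Treg and 4 of 4 in nonTreg. CD8 T and NK cell markers were higher at 3 of 5 in Treg and 4 of 6 in nonTreg. Tmem119, P2ry12, Cldn5 and Cdh5 were not well above background on either spleen array. None of the 8 T cell markers reached 2-fold in either comparison. The part of these other cells in the guidance gene differences was not tested.

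The largest measured difference was in Plxnb2, which had 727.4 in brain Treg against 50.3 in spleen Treg (14.5-fold higher), and 417.0 in brain nonTreg against 16.3 in spleen nonTreg (25.6-fold higher). Plxnd1 had 1433 in brain Treg against 656.6 in spleen Treg (2.18-fold), and 677.6 in brain nonTreg against 228.2 in spleen nonTreg (2.97-fold). Plxna3 fell in both cell types and Plxnb1 in Treg. These are dim probes, and all of these calls were under 2-fold with normexp background correction. The Plxna3 call in Treg was also under 2-fold with the median over its probes. Plxna3 had 20.7 in brain Treg against 61.2 in spleen Treg (2.95-fold lower), and 13.9 in brain nonTreg against 38.5 in spleen nonTreg (2.78-fold lower). Plxnb1, the Sema4d receptor, had 21.5 in brain Treg against 62.0 in spleen Treg (2.89-fold lower), and 20.7 in brain nonTreg against 29.2 in spleen nonTreg (1.41-fold lower).

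Sema6d, a transmembrane ligand of A-type plexins, and Sema7a, which on T cells engages integrins of macrophages, were the semaphorins with measured rises. Sema6d had 151.7 in brain Treg against 11.2 in spleen Treg (13.6-fold higher), and 72.2 in brain nonTreg against a dim 2.7 in spleen nonTreg (at least 5.84-fold higher). Sema7a had 152.3 in brain Treg against 25.5 in spleen Treg (5.97-fold higher), and 198.7 in brain nonTreg against 20.4 in spleen nonTreg (9.75-fold higher). Sema3f was seen in brain only, at 44.1 in Treg and 39.6 in nonTreg, which is at least 4.47-fold and at least 3.20-fold higher than in spleen. Sema3d was seen in spleen Treg only, at 24.3, so brain Treg was at least 2.64-fold lower.

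Several receptors known from vessels were seen on the brain arrays and not on the spleen arrays. Epha2 had 210.6 in brain Treg and 391.0 in brain nonTreg, at least 21.4-fold and at least 31.6-fold higher than in the spleen cells. Robo4 had 139.3 in brain Treg and 193.1 in brain nonTreg, at least 14.2-fold and at least 15.6-fold higher. Ephb4 had 21.9 in brain Treg and 25.4 in brain nonTreg, at least 2.23-fold and at least 2.06-fold higher. Between the brain arrays all 3 lay under 2-fold, with log2 differences of Treg over nonTreg of -0.89 for Epha2, -0.47 for Robo4 and -0.21 for Ephb4, beside a median of -0.73 over the endothelial markers. Efnb2 had 22.5 in brain Treg against 9.2, not well above background, in spleen Treg (at least 2.29-fold), and 43.0 in brain nonTreg against 18.4 in spleen nonTreg (2.34-fold). Efna1, at 18.8 in brain Treg and 37.6 in brain nonTreg, was at least 1.91-fold and at least 3.04-fold higher than in spleen. Robo3 was above background in brain nonTreg only, at 48.2, at least 3.90-fold higher than in spleen nonTreg.

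Ephb6, an Eph receptor expressed by T cells, was lower in brain. It had 584.9 in brain Treg against 2209 in spleen Treg (3.78-fold lower), and 589.9 in brain nonTreg against 1666 in spleen nonTreg (2.82-fold lower). A second, much dimmer Ephb6 probe did not reach 2-fold, at 1.18-fold lower in brain than in spleen Treg and 1.83-fold lower in brain than in spleen nonTreg. Dcc, read from its bright probe, had 2223 in brain Treg against 7200 in spleen Treg (3.24-fold lower), and 1818 in brain nonTreg against 8690 in spleen nonTreg (4.78-fold lower). No other Dcc probe was well above background on any T cell array, so neither value has a second reading. Epha1, above background in spleen only, was at least 2.10-fold lower in Treg of the brain and at least 1.55-fold lower in nonTreg. Ntn5 was seen in spleen nonTreg only, at 29.9, and was at least 3.27-fold lower in brain nonTreg.

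**Figure D5:**
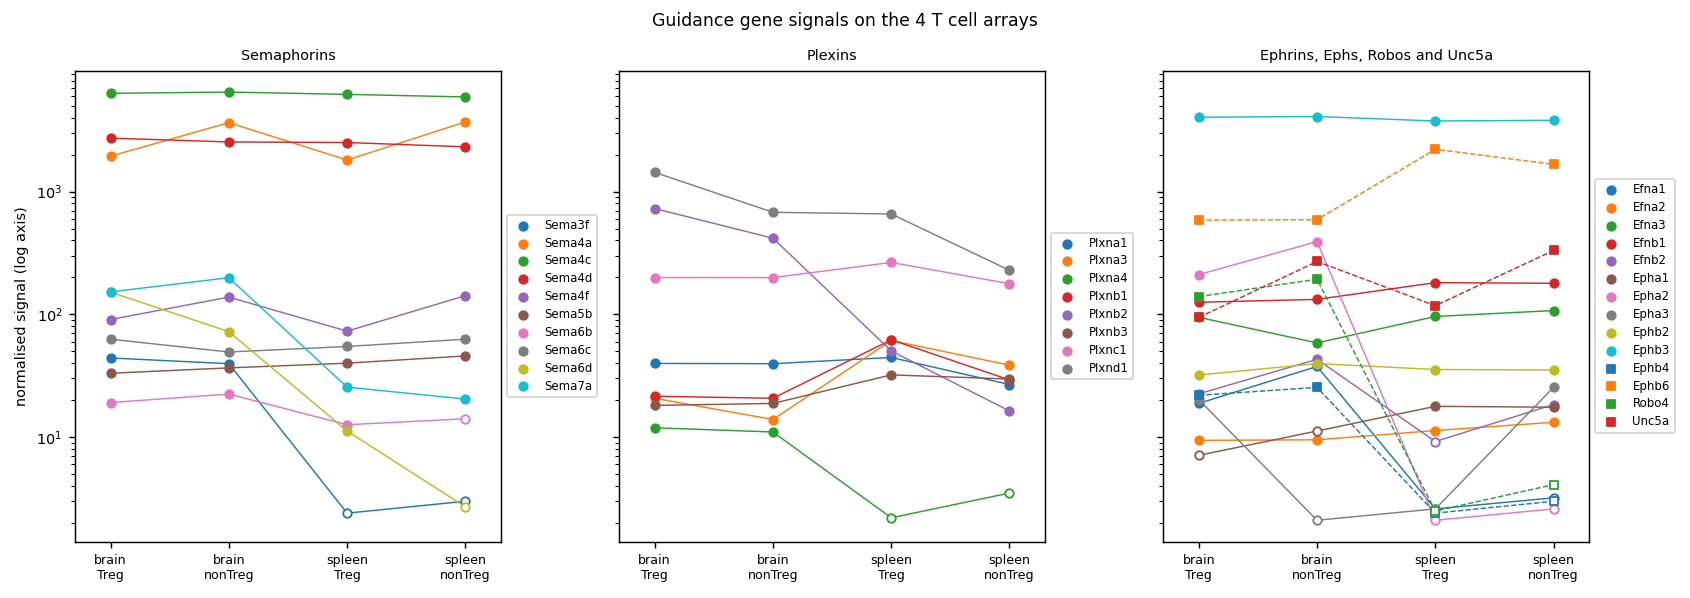
Normalised signal (log axis) on the 4 T cell arrays for members well above background on at least 2 of them, except Dcc: semaphorins (left), plexins (middle) and other members (right). Filled markers are well above background, open markers are not, and lines only join a gene's points. Plxnb2, Sema6d, Sema7a, Epha2 and Robo4 lie higher on the brain arrays than on the spleen arrays, Ephb6 lies lower on the brain arrays, and Sema4c, Sema4d and Ephb3 are level.

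Treg and nonTreg differed by at least 2-fold at 13.5% of members compared in brain and 25.9% in spleen. Over all genes these shares were 7.49% in brain and 8.62% in spleen, and the member counts are small. In brain 3 of 37 members compared were at least 2-fold higher in Treg (4.63% of 13756 genes) and 2 at least 2-fold lower (2.86%), or 5 either way (7.49%). In spleen 3 of 27 were higher (5.38% of 12546 genes) and 4 lower (3.24%), or 7 either way (8.62%). After quantile normalization 2 were higher and 5 lower. Plxnd1 was the member higher in Treg at both sites, 2.11-fold in brain and 2.88-fold in spleen, and the brain value was under 2-fold with the median over its probes. Unc5a was the member lower at both, with 94.3 in brain Treg against 269.3 in brain nonTreg (2.86-fold lower), and 117.6 in spleen Treg against 331.2 in spleen nonTreg (2.82-fold lower).

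Plxnb2 was 3.09-fold higher in Treg than nonTreg in spleen and 1.74-fold higher in brain. Plxnb1 had 62.0 in spleen Treg against 29.2 in spleen nonTreg (2.12-fold higher), and 21.5 in brain Treg against 20.7 in brain nonTreg (1.04-fold higher). Sema4a, a semaphorin of T cell priming, was lower in Treg: 1807 in spleen Treg against 3690 in spleen nonTreg (2.04-fold lower), and 1942 in brain Treg against 3640 in brain nonTreg (1.87-fold lower). Sema4f was 1.95-fold lower in spleen and 1.52-fold lower in brain. Sema6d was 2.10-fold higher in brain Treg than in brain nonTreg, and 1.70-fold higher by its second probe. With normexp background correction the calls of Sema6d, Robo3 and Epha3 in brain, and of Plxnb1, Plxnb2, Ntn5 and Epha3 in spleen, were under 2-fold. Robo3 was at least 5.63-fold lower in Treg than in nonTreg of the brain, and Ntn5 at least 3.03-fold lower in Treg than in nonTreg of the spleen. Efna1 had 18.8 in brain Treg against 37.6 in brain nonTreg, which lay just under the threshold.

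Microglia markers were higher in brain Treg than in brain nonTreg (9 of 9, median 1.33, summed 43733 in Treg against 17152 in nonTreg), and in spleen none was higher and 1 was lower. All 5 Treg markers were higher in Treg at both sites, with a summed signal of 26937 in brain Treg against 5934 in brain nonTreg, and 29873 in spleen Treg against 546.3 in spleen nonTreg. All 5 Treg markers were also at least 2-fold higher in brain nonTreg than in spleen nonTreg. The part of either marker set in the member differences was not tested. Brain minus spleen, the Treg against nonTreg difference was -1 or less for 1 of 22 members, Plxnb1 at -1.04 (3.79% of 11301 genes), and 1 or more for none (2.30%).

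Nrp1, a co-receptor of class 3 semaphorins and a surface marker of Treg, had 5821 in Treg and 3311 in nonTreg of the brain, and 5500 in Treg and 807.2 in nonTreg of the spleen. Its log2 difference of Treg over nonTreg was 2.77 in spleen and 0.81 in brain. Dscam, a netrin co-receptor, had 83.4 in brain Treg against 21.5 in brain nonTreg, and 120.3 in spleen Treg against a dim 7.6 in spleen nonTreg. Of the other guidance ligands and co-receptors compared, 4 of 15 were higher and 1 lower in brain than in spleen Treg (17.2% and 11.7% of all genes), and 6 of 13 were higher and 1 lower in brain than in spleen nonTreg (17.8% and 12.1%). Itgb1, the integrin chain that binds Sema7a, was among the higher ones, with 8136 in brain Treg against 2181 in spleen Treg and 10120 in brain nonTreg against 1802 in spleen nonTreg. Of the cytoplasmic effectors 9 of 35 were higher and 5 lower in brain Treg, and 9 of 34 were higher and 2 lower in brain nonTreg. Crmp1, a collapsin response mediator protein, had log2 differences of 2.27 in Treg and 2.69 in nonTreg, while Ptk2, the focal adhesion kinase, had -1.70 in Treg and -1.64 in nonTreg.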

How the data were processed

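RNA was measured on 8 one-colour Agilent arrays, 1 per group. Per the file headers, the deposited scanner files give background-subtracted, detrended intensity per spot. The submitters' processing notes name version 10.7.1.1 of Agilent's Feature Extraction. The authors' deposited series table holds a signal equal to that intensity divided by a constant per array for 99.89% to 99.97% of probes (within 0.1%), with column medians of 0.068 to 0.123. What the constant stands for is not given in the sources used here.

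Here control spots were left out, outlier spots were left out where a probe had others, spots of a probe were averaged, and each array was divided by its 75th percentile and brought to a common level within its set. The percentile was taken over all probes for tissue, and for T cells over those probes that all 4 arrays had well above background. No level or difference was compared between the 2 sets. Probes were named through RefSeq accessions (32994 of 56605 probes), and the probe with the highest mean stood for a gene. Genes above background on neither array of a comparison were not compared. A gene dim on 1 array got a bound against the lowest signal well above background there. All arrays share 1 scan time, so no batch could be split. T cell arrays lie in the first slide row and tissue arrays in the second.

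Named are members at 2-fold or more in any comparison, the 3 highest and 3 lowest measured members of each comparison, and 15 members that were always to be named. Other members are named in passing, chosen after their values were seen. The members and the gene lists were chosen with earlier results of these data known. Of the other pathway lists only the highest and lowest genes, and partners named for their role, are given. Differences were tested on simulated data first. The 8 alternatives cover scaling, background, dim probes, choice of probe and source. The deposited files used here hold median and not mean spot signals, so normexp (offset 50) was run on medians. Python 3.11.15 with pandas 2.3.3, numpy 2.4.6 and matplotlib 3.10.9 was used, and R 4.3.3 with limma 3.58.1 for normexp.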

Additional observations from a re-analysis of the deposited data

Results flagged for a closer look

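Epha3, an EphA receptor, went opposite ways in Treg and nonTreg. It was well above background in brain Treg (20.2) and spleen nonTreg (25.4), and was not in brain nonTreg (2.1) or spleen Treg (2.6). The log2 bounds were 1.04 for brain against spleen in Treg and -1.48 in nonTreg, and 1.15 for Treg against nonTreg in brain and -1.37 in spleen. The difference between these effects was not tested, and all of these calls were under 2-fold with normexp background correction. Each value rests on 1 dim spot per array, and its other probe was not well above background on any T cell array.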

How the results depend on the processing

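Over the 8 alternatives 24 to 34 members were called in WT, against 28 as reported, and 34 to 39 in DEREG, against 38. Of 115 calls of members, 112 kept 2-fold and direction with scaling to the array median, 111 with quantile normalization, 114 with the other probe set for the percentile and 115 with the authors' deposited series table. With normexp background correction, whose offset of 50 shrinks differences of dim probes, 79 of 112 did, and with the median over a gene's probes 94 of 108. Median scaling moved the median of all genes in the WT stroke comparison to -0.36, against -0.19. DEREG against WT after stroke gave 3 calls with median scaling and 1 with normexp, against 5. After sham surgery 1 member was called with no filter on dim probes, against 0. Brain against spleen gave 8 calls in Treg and 7 in nonTreg with normexp, 8 in Treg and 7 in nonTreg among genes measured on both arrays, and 33 in Treg and 25 in nonTreg with no filter, against 16 in each. Treg against nonTreg in brain gave 2 with normexp, 3 among genes measured on both arrays and 15 with no filter, against 5. In spleen it gave 3 with normexp and 16 with no filter, against 7. The stroke difference in DEREG minus WT reached 1 in size for 2 members with normexp, against 7. The Treg difference in brain minus spleen did so for 0 members with quantile normalization, 0 with normexp and 18 with no filter, against 1. The genes measured on both arrays were already the only ones in these subtractions, so that setting was not run there. Dcc turned to 0.64 in brain against spleen nonTreg with the median over its probes, against -2.26, and to -0.08 in Treg, against -1.70. These medians include 3 probes that are not well above background on any T cell array, so they carry no measured direction. Signal over background limits the T cell results, where many members are bounds, and with no filter the added calls come from dim probes. No paired analysis was possible because each group has 1 array, and for the same reason no array could be left out.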
